A study of Mus musculus with 50 samples.

Results

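In mouse gene nomenclature, symbols that start with Zfp and a number name genes for zinc finger proteins, most of them nuclear proteins that bind DNA through short folded loops held by a zinc ion. The genes described here were the 232 of 368 such genes whose mean level in the 2 control libraries of mouse embryonic stem cells was at least 5 TPM (the authors' transcript abundance per length, scaled to a fixed total). They stood among 24412 genes in the table. Of the other Zfp genes, 133 lay below the threshold, and Zfp42, Zfp352 and Zfp750 were left out by the rule. Just inside the threshold lay Zfp873 at 5.01 TPM, Zfp189 at 5.11 TPM and Zfp870 at 5.25 TPM. Just outside lay Zfp111 at 4.9955 TPM, Zfp768 at 4.98 TPM and Zfp647 at 4.93 TPM. The members were thus chosen by their level in those control libraries, which is given as a description, and no comparison with those 2 libraries is used as a test.

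RNA was measured by poly(A)-selected, strand-specific sequencing in 50 libraries of the embryonic stem cell line TT2, 2 for each of 25 groups. A first table of 18 libraries held control, Setdb1-KO, Suv39h1/2-DKO (both Suv39h1 and Suv39h2 lost), Suv39h1/2 Setdb1-TKO, G9a-KO (G9a is the product of Ehmt2), G9a Setdb1-DKO, G9a Suv39h1/2-TKO, G9a Suv39h1/2 Setdb1-QKO (QKO below) and Dux-KO QKO cells. The other table, of 32 libraries, repeats the 8 genotypes from control to QKO in Tet-on-Dux cells, which carry a doxycycline-inducible transgene of the homeobox gene Dux, each without and with doxycycline. The genotype field of all 32 libraries also names Dux-KO, so these controls lack endogenous Dux. The doxycycline dose label was 0.2 for control and Setdb1-KO and 1 for the other 6 genotypes, with no unit given, and doses were not compared. OHT stands in the titles of every group that lacks Setdb1 and NT in the rest, unexplained by the labels, and whatever OHT was cannot be told apart from the loss of Setdb1. The labels do not say whether a genotype is a single clone or whether the 2 replicates are separate cultures, so every p-value measures the spread between these libraries, which may be technical. The 2 tables were normalised separately. Where levels of their libraries stand side by side below, they are a description and were not tested.

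About this family it is known that many members carry a KRAB domain at the start of the protein, followed by a row of C2H2 fingers. Once bound to DNA, often within retroelements, a KRAB zinc finger protein recruits Trim28 (also called Kap1), which brings in Setdb1, and Setdb1 methylates lysine 9 of histone H3 so that the site is silenced. KRAB zinc finger genes lie in clusters of similar copies, and the clusters themselves can carry H3K9 methylation. In mouse embryonic stem cells this system silences endogenous retroviruses and holds the methylation of imprinted loci.

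The most abundant member in control cells was Zfp57, the KRAB protein that guards DNA methylation at imprinted loci, with 375 and 365 TPM. Next came Zfp207, a protein of the mitotic spindle, with a mean of 276 TPM, Zfp740 with 146 TPM, Zfp428 with 115 TPM and Zfp553 with 109 TPM. Most members were far lower: the median was 13.0 TPM with quartiles of 8.46 and 27.6 TPM, 23 members reached 50 TPM and 88 lay under 10 TPM. A KRAB A box was found in the annotated proteins of 125 members and not in 107, by a profile built from the 97 members that held a strict form of it. C2H2 fingers were found in 223 members, with the most, 37, in Zfp142. Zfp36, Zfp36l1 and Zfp36l2, which bind AU-rich elements of mRNAs and speed their decay, carried 2 CCCH fingers each in place of C2H2 fingers. On the genome (GRCm38, GENCODE M21), 56 members lay on chromosome 7, 30 on chromosome 17, 22 on chromosome 13, 18 on chromosome 8, 14 on chromosome 9 and 13 on chromosome 5, and 149 had another member within 1 Mb. As copies of this family are alike, 27 members shared at least 20% of their 50-base transcript stretches with another gene, and no source used here gives how the authors' counting split such reads.

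Several facts of the libraries bear on the values. In libraries that kept Setdb1 its level was 41.4 to 53.2 TPM in the first table against 19.8 to 36.5 TPM where it was lost. For Ehmt2 the ranges were 82.5 to 104 TPM and 7.38 to 30.2 TPM. For Suv39h1 (21.3 to 34.0 TPM kept, 11.1 to 22.9 TPM lost) and Suv39h2 (14.4 to 27.2 TPM kept, 12.1 to 17.1 TPM lost) the ranges overlapped, so RNA level alone did not separate these genotypes. In the second table Setdb1 stood at 29.2 to 71.0 TPM where kept and 13.9 to 28.8 TPM where lost, Ehmt2 at 53.2 to 196 and 1.95 to 6.58 TPM, and Suv39h1 at 14.4 to 30.8 and 4.90 to 12.4 TPM, while the ranges of Suv39h2 again overlapped. The 7 embryonic stem cell markers were detected in every group of the first table, with summed levels from 5990 to 6111 TPM in G9a-KO, the lowest, and 7745 to 8095 TPM in control to 12166 to 13762 TPM in QKO, the highest, and 5 fibroblast markers summed to at most 6.86 TPM. In bulk RNA, fewer cells of a type and less RNA per cell cannot be told apart. Of the 32 Tet-on-Dux libraries, 6 stood apart by a high level of 15 Snhg genes, the host genes of small nucleolar RNAs, with a mean log2 level of 4.16 to 4.61 against 2.40 to 3.26 in the other 26. The 6 were control without doxycycline replicate 1, Setdb1-KO without doxycycline replicate 2 and with doxycycline replicate 2, G9a-KO with doxycycline replicate 2, and G9a Setdb1-DKO without doxycycline replicate 2 and with doxycycline replicate 2. All 18 libraries of the first table lay at 4.30 to 4.87. Depth is unknown, since TPM keeps no read counts.

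Most members kept close to 1 level across the genotypes of the first table. The ratio of the highest to the lowest of the 9 group means was under 2-fold for 171 of 232 members (73.7%) and at least 4-fold for 2 (0.86%), while among all 9471 genes at 5 TPM or more in control it was under 2-fold for 66.9% and at least 4-fold for 6.80%. The steadiest members by the coefficient of variation of group means were Zfp207 (4.59%), Zfp512 (4.75%) and Zfp106 (5.99%). The most variable were Zfp951 (59.0%, 11.5-fold range), Zfp37 (53.8%, 4.05-fold range) and Zfp365 (49.5%, 3.87-fold range). By this ratio members varied more in the second table, but it spans 16 group means there against 9 and tends to widen with more groups. Of the members, 77 (33.2%) stayed under 2-fold, against 50.3% of the same 9471 genes, and 17 reached 4-fold (7.33%, against 10.4% of those genes). There Zfp407 (8.21%), Zfp772 (9.34%) and Zfp451 (9.69%) were steadiest, and Zfp951 (72.4%), Zfp882 (71.6%) and Zfp809 (58.8%) most variable. The second table also held the libraries with high Snhg levels, and their part in this was not tested. All 232 members were at 1 TPM or more in every library of the first table, and 230 to 232 in each library of the second.

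Comparisons were made within a table by limma on log2(TPM+1). A gene counted as called when its Benjamini-Hochberg adjusted p was below 0.05 and its log2 fold change at least 1 in size. A fold change on this scale understates that of a low gene. Over the 25 pairs of groups tested, none of which used the control libraries of the first table, 41 members (17.7%) were called at least once and 191 never. Of all 14263 genes tested 29.8% were called at least once, and of the 9471 genes at 5 TPM or more in control 20.3%. Members with a KRAB A box were called about as often as those without, at 20 of 125 (16%) and 21 of 107 (19.6%). The member called most often was Zfp951, in 10 of the 25 pairs, then Zfp37, Zfp395 and Zfp654 in 4 each and Zfp518a, Zfp882 and Zfp958 in 3 each. The pairs share libraries, so these tallies do not count independent responses. Called members were named where their libraries did not overlap between the groups, so a lack of overlap given below for a called member adds no support. With median ratio scaling the median of all genes moved by over 0.1 in several comparisons, from 0.22 to 0.01 at most in the first table, and calls that this ended are named beside their values.

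**Figure D1:**
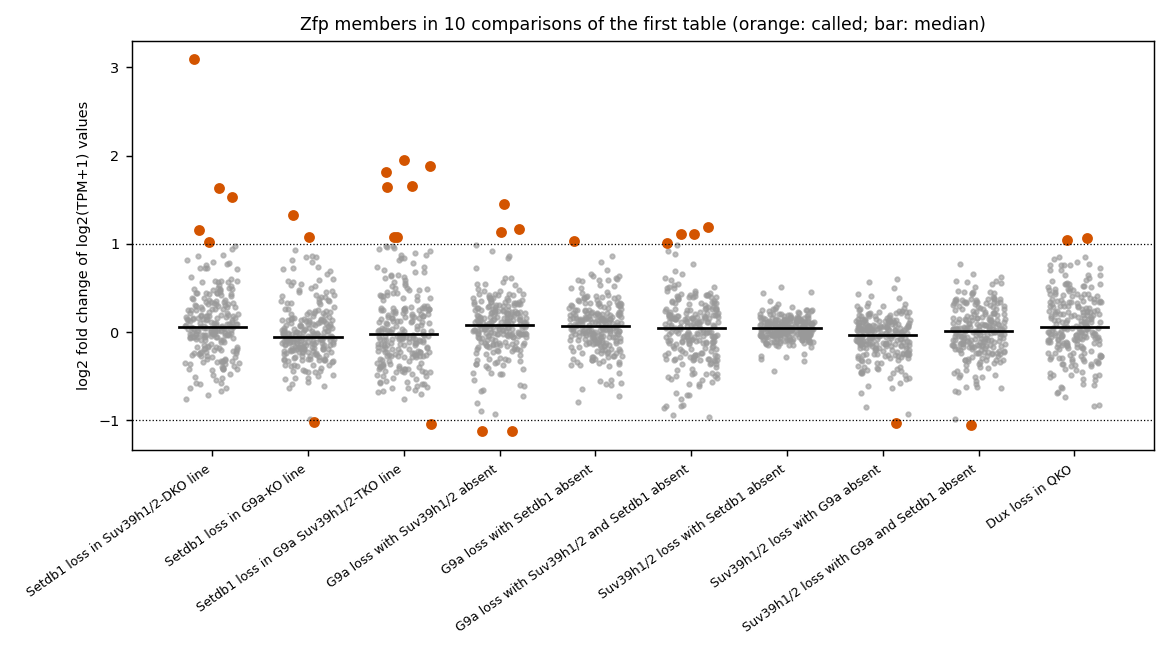
Log2 fold change of log2(TPM+1) for each of the 232 members (points) in 10 comparisons of the first table (horizontal axis), with called members in orange and the median of members as a bar. The bulk of members sits near 0 in every comparison, and a few points stand far above it where Setdb1 was lost.

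Loss of Setdb1 in cells that already lacked Suv39h1/2 raised 5 members and lowered 0 of 232, all 5 with a KRAB A box: Zfp951, Zfp37, Zfp809, Zfp600 and Zfp958. Of all 13862 genes tested, 4.65% were called higher and 1.75% lower in this comparison, so the members' share of 2.16% higher lay below the background and near the 2.34% of genes that, like the members, reached 5 TPM in control. The members' median was 0.06 against -0.03 for all genes on the log2 scale. Zfp951 is a KRAB gene with 10 fingers at chr5:104813169-104860070 on the minus strand. Its level was 4.80 and 5.23 TPM in the Suv39h1/2-DKO libraries and 47.5 and 53.1 TPM in Suv39h1/2 Setdb1-TKO. The groups lay far apart, with a log2 fold change of 3.09 (SE 0.14, limma adjusted p = 4.17e-10). Zfp37, a KRAB gene with 12 fingers at chr4:62189540-62231047 on the minus strand, went from 9.16 and 9.64 TPM to 30.1 and 32.3 TPM without overlap (log2 fold change 1.63, SE 0.16, adjusted p = 2.74e-06). Zfp809, at chr9:22225714-22243354 on the plus strand, binds the primer binding site of murine leukaemia viruses and silences them in embryonic cells. It stood at 28.8 and 32.4 TPM and then at 95.3 and 85.7 TPM (log2 fold change 1.53, SE 0.17, adjusted p = 9.01e-06).

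In the same comparison Zfp958, a KRAB gene with 13 fingers at chr8:4613167-4630231 on the plus strand, stood at 34.5 and 39.8 TPM and then at 68.9 and 83.8 TPM (log2 fold change 1.02, SE 0.21, adjusted p = 0.00254). Its fold change lay at the threshold: without Suv39h1/2-DKO replicate 1 it was 0.92, and without Suv39h1/2 Setdb1-TKO replicate 2 it was 0.88. Zfp600, a KRAB gene with 17 fingers at chr4:146156824-146198755, stood at 47.5 and 57.4 TPM and then at 109.6 and 127 TPM (log2 fold change 1.16, SE 0.20, adjusted p = 0.000641). Its transcripts share 83.6% of their 50-base stretches with other genes, most with Rex2, so its own level is uncertain. The calls of Zfp951, Zfp37, Zfp809 and Zfp600 held in all 8 alternative settings tried, of which 4 left out a library.

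Loss of Setdb1 in cells without G9a and Suv39h1/2 (QKO against G9a Suv39h1/2-TKO) raised 7 members and lowered 1, where 6.45% of all genes were called higher and 2.65% lower (3.00% and 2.43% of genes at 5 TPM or more in control) and the members' median was -0.02 against -0.07. Zfp809 stood at 28 and 32.5 TPM in the G9a Suv39h1/2-TKO libraries and at 117 and 122 TPM in QKO (log2 fold change 1.95, SE 0.17, adjusted p = 4.65e-07). Zfp951 stood at 11.7 and 13.2 TPM and then at 43.6 and 53.8 TPM (log2 fold change 1.88, SE 0.14, adjusted p = 7.83e-08). Zfp37 went from 8.56 and 10.04 TPM to 28.6 and 34.0 TPM (log2 fold change 1.65, SE 0.16, adjusted p = 1.55e-06). No library of any of these genes overlapped between the groups. Zfp958 stood at 23.7 and 34.2 TPM and then at 77.0 and 109.7 TPM (log2 fold change 1.65, SE 0.21, adjusted p = 2.81e-05). Zfp654, a gene with 5 fingers and no KRAB A box at chr16:64780347-64851652, stood at 14.2 and 20.1 TPM and then at 55.9 and 69.0 TPM (log2 fold change 1.82, SE 0.26, adjusted p = 6.11e-05). The smaller rises were those of Zfp791 (3.37 and 3.17 TPM, then 9.19 and 7 TPM, log2 fold change 1.08) and Zfp280d (13.9 and 15.6 TPM, then 31.3 and 33.1 TPM, 1.08). Zfp36l2, of the mRNA decay group, fell from 33.3 and 34.0 TPM to 17.2 and 14.6 TPM (log2 fold change -1.04, SE 0.16, adjusted p = 0.000159). These last 3 lay at the threshold, and with single libraries left out each was lost, Zfp791 at 0.91 and Zfp36l2 at -0.93. Scaling libraries by median ratios, which centres the median of all genes near 0, gave 13 higher and 0 lower, with Zfp36l2 at -0.95. The count of 8 called members moved to 17 without G9a Suv39h1/2-TKO replicate 2 and to 13 without QKO replicate 1.

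Loss of Setdb1 in cells without G9a (G9a Setdb1-DKO against G9a-KO) raised 2 members, Zfp37 and Zfp707, and lowered 1, Zfp280c, with 4.62% of all genes called higher and 0.815% lower and medians of -0.05 and -0.02. Of genes at 5 TPM or more in control, 1.53% were higher and 0.781% lower. Zfp37 stood at 12.4 and 15.1 TPM and then at 31.3 and 41.4 TPM (log2 fold change 1.33, SE 0.16, adjusted p = 2.65e-05). Zfp707, a KRAB gene with 8 fingers on chromosome 15, stood at 8.31 and 8.63 TPM and then at 18.2 and 19.7 TPM (log2 fold change 1.08, SE 0.12, adjusted p = 1.51e-05). Both genes were higher in both libraries without Setdb1. Zfp280c, which has no KRAB A box, stood at 22.3 and 28 TPM and then at 8.63 and 16.0 TPM (log2 fold change -1.02, SE 0.24, adjusted p = 0.00591), but with single libraries left out it came to as little as -0.61 and was not called, and with median ratio scaling it was -0.99 and 2 members were higher and 0 lower. In this line Zfp951 already stood at 23.2 and 30.3 TPM before Setdb1 was lost and reached 45.2 and 48.4 TPM after, with an uncalled log2 fold change of 0.79. Without G9a Setdb1-DKO replicate 1 the count of called members was 6 in place of 3.

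**Figure D2:**
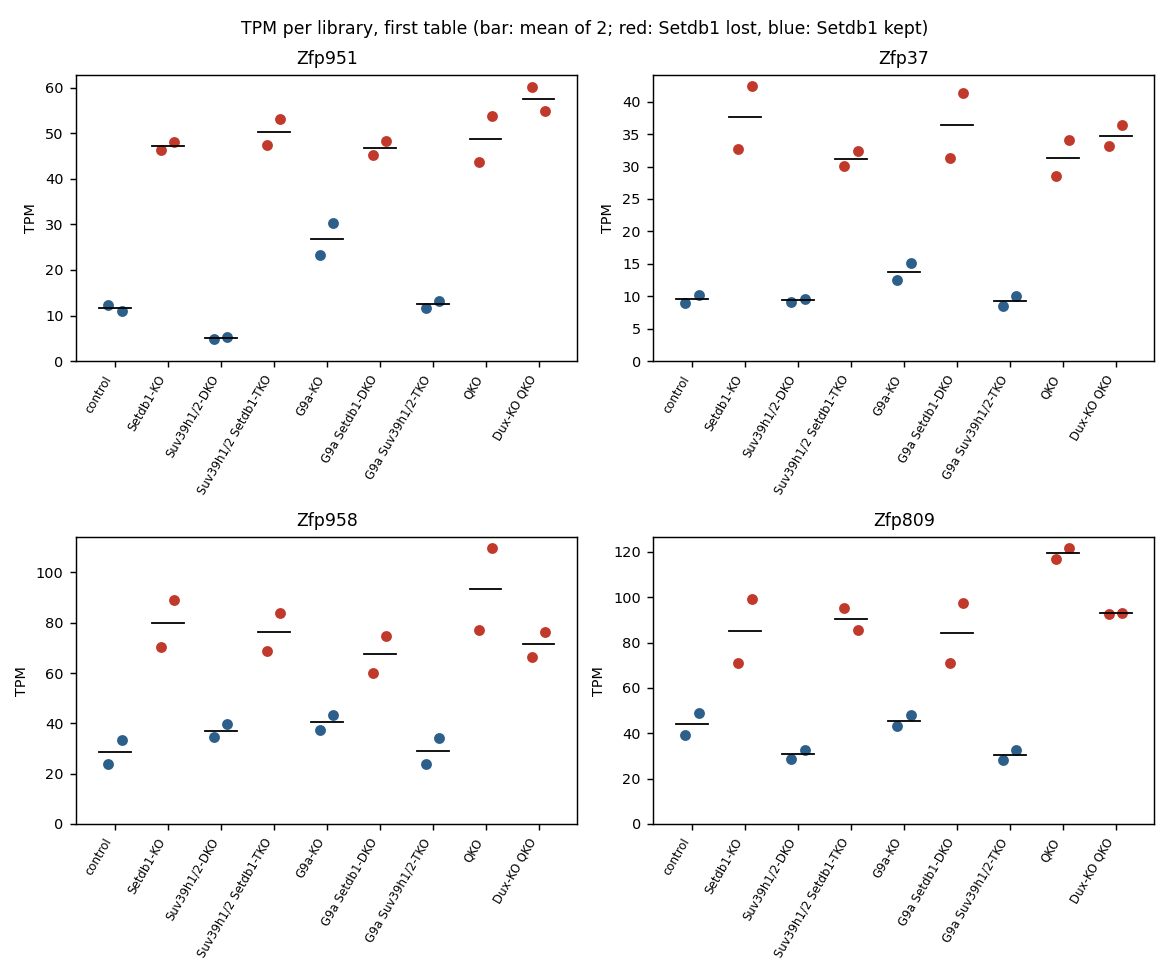
TPM in each of the 18 libraries of the first table (vertical axis, linear, 1 panel a gene) for Zfp951, Zfp37, Zfp958 and Zfp809 by group (horizontal axis), red where Setdb1 was lost. Zfp951 lies at 43.6 to 60.2 TPM in every library without Setdb1 and at 30.3 TPM or less in every other.

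In the groups that chose the members the same genes are described without a test. In control Zfp951 stood at 12.3 and 10.9 TPM, against 46.3 and 48.1 TPM in Setdb1-KO. Zfp37 stood at 8.99 and 10.2 TPM against 32.8 and 42.5 TPM. Zfp809 stood at 39.3 and 49.1 TPM against 71.0 and 99.1 TPM, and Zfp958 at 23.9 and 33.5 TPM against 70.4 and 89.1 TPM. In each of these genes both Setdb1-KO libraries were above both control libraries.

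The sequences around the start sites of Zfp951, Zfp37, Zfp958 and Zfp809 are shown because these were the members called higher on Setdb1 loss in more than 1 line of the first table. Each runs 5′ to 3′ on the gene's strand, from 250 bases before the RefSeq start listed first to 50 bases after it (GRCm38.p6), in lower case with every CpG, the dinucleotide that DNA methylation targets, in capitals. The windows are chr5:104859978-104860277 on the minus strand for Zfp951, chr4:62208497-62208796 on the minus strand for Zfp37, chr8:4612920-4613219 on the plus strand for Zfp958 and chr9:22225453-22225752 on the plus strand for Zfp809.
Zfp951: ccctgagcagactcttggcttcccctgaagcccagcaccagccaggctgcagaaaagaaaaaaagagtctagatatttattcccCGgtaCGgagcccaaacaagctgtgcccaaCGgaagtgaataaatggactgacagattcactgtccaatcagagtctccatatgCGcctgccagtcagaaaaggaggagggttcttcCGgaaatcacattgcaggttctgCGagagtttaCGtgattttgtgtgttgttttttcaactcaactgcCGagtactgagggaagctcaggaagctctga
Zfp37: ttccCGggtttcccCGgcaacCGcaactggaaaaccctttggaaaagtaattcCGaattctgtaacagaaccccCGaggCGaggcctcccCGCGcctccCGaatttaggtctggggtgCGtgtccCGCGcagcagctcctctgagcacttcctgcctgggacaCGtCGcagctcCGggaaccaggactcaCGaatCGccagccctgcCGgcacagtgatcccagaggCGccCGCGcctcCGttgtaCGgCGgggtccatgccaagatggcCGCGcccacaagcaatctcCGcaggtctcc
Zfp958: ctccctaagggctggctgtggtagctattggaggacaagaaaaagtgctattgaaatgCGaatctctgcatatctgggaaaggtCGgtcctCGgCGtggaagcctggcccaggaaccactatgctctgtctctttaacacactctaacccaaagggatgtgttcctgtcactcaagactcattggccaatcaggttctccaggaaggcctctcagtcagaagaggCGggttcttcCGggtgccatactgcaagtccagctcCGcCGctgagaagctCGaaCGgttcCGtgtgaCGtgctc
Zfp809: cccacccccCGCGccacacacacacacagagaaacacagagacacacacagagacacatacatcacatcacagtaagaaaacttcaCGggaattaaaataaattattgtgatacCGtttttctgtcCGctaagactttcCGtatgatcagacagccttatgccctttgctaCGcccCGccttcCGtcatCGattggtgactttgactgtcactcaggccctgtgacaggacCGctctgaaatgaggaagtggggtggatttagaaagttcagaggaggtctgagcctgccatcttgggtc
The motif searched was CG, which reads the same on both strands. Zfp37 holds 27 CpG, at percentile 86.9 among members. Zfp958 holds 12 (percentile 36.1), Zfp809 holds 11 (percentile 34.0) and Zfp951 holds 8 (percentile 16.2). Over the 191 members with a window the median was 15 CpG (quartiles 9 and 21, range 0 to 54), against a median of 7 over all 27025 genes with a window, and 99.48% of member windows and 94.22% of all windows held at least 1. Unlike the members, all genes were not chosen by their level, and no set of like level was compared. RefSeq lists more than 1 start for each of the 4 genes. The other windows hold 17 CpG for Zfp37, 8 for Zfp951, 13 and 13 for Zfp958 and 11 for Zfp809. For Zfp37 both windows lie inside the GENCODE gene, whose annotated end on this strand is 62231047. Every gene entered the medians by its window listed first.

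Other genes moved with Setdb1 loss in the same comparisons. The 6 markers of the 2-cell stage were all called higher in each of the 3 lines, with median log2 fold changes of 4.51 with Suv39h1/2 absent, 2.65 with G9a absent and 4.51 with both absent. Their summed level was 2.86 to 4.31 TPM in Suv39h1/2-DKO and 498 to 505 TPM in Suv39h1/2 Setdb1-TKO, 234 to 242 TPM in G9a-KO and 1458 to 1512 TPM in G9a Setdb1-DKO, and 131 to 148 TPM in G9a Suv39h1/2-TKO and 3419 to 3428 TPM in QKO. Of 5 primitive endoderm markers, 1 was called higher in the first of these lines, 2 lower in the second and 5 lower in the third. The 6 trophoblast markers summed to 28.5 to 31.4 TPM in Suv39h1/2-DKO and 55.2 to 58.7 TPM in Suv39h1/2 Setdb1-TKO, to 37.2 to 37.6 TPM in G9a-KO and 69.3 to 76.1 TPM in G9a Setdb1-DKO, and to 40.0 to 40.1 TPM in G9a Suv39h1/2-TKO and 52.0 to 62.0 TPM in QKO. The part of these in the members' rises was not tested. In the Dux-KO QKO libraries, where the 2-cell markers summed to 57.0 to 60.7 TPM, Zfp951 stood at 60.2 and 55.0 TPM, Zfp37 at 33.2 and 36.4 TPM and Zfp809 at 92.8 and 92.9 TPM. The trophoblast markers summed to 142 to 143 TPM in these libraries. Such sums rest mostly on Krt8, Krt18 and Tfap2c, which reached 61.8, 43.0 and 36.2 TPM in the first table. Cdx2, Elf5 and Hand1 stayed at or below 1.49, 0.243 and 4.86 TPM in all its libraries, so the sums do not show a trophoblast identity.

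Split by domain, the 125 members with a KRAB A box had medians of 0.16, -0.01 and 0.17 on Setdb1 loss in the Suv39h1/2-DKO, G9a-KO and G9a Suv39h1/2-TKO lines, with 5, 2 and 5 called higher and 0 lower. The 107 without had medians of -0.04, -0.10 and -0.19, with 0, 0 and 2 called higher and 0, 1 and 1 lower. Zfp genes under the 5 TPM threshold, of which 101 were tested, had medians of 0.15, 0.18 and 0.17 with 5, 3 and 6 called higher and 0 lower. These were chosen for a low level in control. The filter could admit such a gene through a group where it was high, which favours rises, so their values cannot be set against those of the members. The 40 tested Zbtb genes, a zinc finger family with BTB in place of KRAB domains, had medians of -0.05, 0.02 and -0.04, with 1, 0 and 0 called higher and 1, 0 and 0 lower. The SCAN domain family (Zkscan and Zscan genes other than Zscan4, 21 tested) had medians of 0.12, 0.21 and -0.01, with 0, 0 and 1 called higher. The differences between these lists were not tested.

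Whether a member responded differently to Setdb1 loss between lines was tested as a difference of differences. The log2 fold change in the G9a-KO line minus that in the Suv39h1/2-DKO line was called below 0 for 3 members and above 0 for 0 (background 2.11% and 2.24% of all genes, 1.31% and 1.05% of genes at 5 TPM or more in control). For Zfp951 the difference was -2.30 (SE 0.20, adjusted p = 4.88e-06), between fold changes of 0.79 and 3.09. For Zfp600 it was -1.61 (SE 0.29, adjusted p = 0.0024). Zfp934 differed by -1.31 (SE 0.32, adjusted p = 0.0193), with 8.01 and 7.53 TPM in Suv39h1/2-DKO, 15.2 and 16.4 TPM in Suv39h1/2 Setdb1-TKO, 17.3 and 13.7 TPM in G9a-KO and 9.59 and 14 TPM in G9a Setdb1-DKO. Its fold changes, neither of them called, were 0.94 with Suv39h1/2 absent and -0.37 with G9a absent, so they were opposite in sign. Zfp600 stood at 133 and 143 TPM in G9a-KO and at 86.6 and 117 TPM in G9a Setdb1-DKO, so its direction there was opposite to that in the Suv39h1/2-DKO line, although the change within the G9a-KO line itself was not called (log2 fold change -0.45). The transcripts of Zfp934 share 40.6% of their 50-base stretches with other genes, and the gene overlaps Zfp935. The same difference for the G9a Suv39h1/2-TKO line was called below 0 for 2 members and above 0 for 0 (background 2.42% and 2.65%, and 1.66% and 1.19% of genes at 5 TPM or more in control): Zfp951 at -1.21 (SE 0.20, adjusted p = 0.000931) and Zfp428 at -1.19 (SE 0.27, adjusted p = 0.00967). Zfp428, a gene with 1 finger that overlaps an antisense gene, stood at 105 and 96.0 TPM in Suv39h1/2-DKO, 172 and 131 TPM in Suv39h1/2 Setdb1-TKO, 147 and 109 TPM in G9a Suv39h1/2-TKO and 98.4 and 68.5 TPM in QKO. Its fold changes, 0.57 with Suv39h1/2 absent and -0.62 with G9a and Suv39h1/2 absent, were opposite in sign and neither was called. The differences of Zfp951 and Zfp600 held in all 12 alternative settings, while that of Zfp934 was lost in 5 of 12 and that of Zfp428 in 3 of 12. The first count was 8 in place of 3 without G9a Setdb1-DKO replicate 2. The second was 1 in place of 2 without Suv39h1/2 Setdb1-TKO replicate 1, G9a Suv39h1/2-TKO replicate 1 or QKO replicate 2.

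In the Tet-on-Dux cells without doxycycline, Zfp951 rose with Setdb1 loss in all 4 lines. It stood at 8.74 and 6.70 TPM in control and 25.7 and 41 TPM once Setdb1 was lost, a log2 fold change of 1.95 (SE 0.37, adjusted p = 0.00248). With Suv39h1/2 absent it stood at 1.27 and 2.74 TPM and then at 13.1 and 17.9 TPM (2.48, SE 0.37, adjusted p = 0.000375). With G9a absent it stood at 12 and 11.5 TPM and then at 27.1 and 53.0 TPM (1.61, SE 0.37, adjusted p = 0.00651), and with both absent at 8.35 and 9.86 TPM and then at 30.3 and 33.2 TPM (1.70, SE 0.37, adjusted p = 0.0056). In none of the 4 lines did the libraries overlap. Without the 6 libraries of high Snhg level the fold changes of Zfp951 were 1.79 (adjusted p = 0.0203), 2.48, 1.14 (adjusted p = 0.0369) and 1.70, each past the threshold. No other member was called in the control line (1 higher and 0 lower, background 1.67% and 0.847%) or the Suv39h1/2-DKO line (1 and 0, background 1.18% and 0.463%). For genes at 5 TPM or more in control the background was 1.06% and 0.781% in the first of these lines and 0.866% and 0.37% in the other. In the control line the count was 0 without Setdb1-KO replicate 2, where Zfp951 was at 1.62 with an adjusted p of 0.0595, and 2 without its replicate 1. In the Suv39h1/2-DKO line it was 2 without Suv39h1/2-DKO replicate 1 and 3 without the high-Snhg libraries. The interaction of the G9a Suv39h1/2-TKO line with the control line called 0 members by limma (background 0.391% and 0.0579%), with 2 at an unadjusted p below 0.05. The 2-cell markers of these cells, summed, stood at 22.3 to 28.2 TPM in control and 24.1 to 41.7 TPM in Setdb1-KO, and at 5.33 to 7.95 TPM in Suv39h1/2-DKO and 5.60 to 6.68 TPM in Suv39h1/2 Setdb1-TKO, overlapping in both lines. They stood at 46.2 to 62.1 TPM in G9a-KO and 171 to 256 TPM in G9a Setdb1-DKO, and at 103 to 133 TPM in G9a Suv39h1/2-TKO and 242 to 275 TPM in QKO, without overlap. Their part in the values of Zfp951 was not tested.

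In the G9a-KO line of the second table Setdb1 loss called 8 members higher and 0 lower (background 3.73% and 1.22%, member median 0.32 against 0.13 for all genes). The members' share of 3.45% higher lay above the 1.86% of genes at 5 TPM or more in control, of which 0.94% were lower. In this line G9a Setdb1-DKO replicate 2 was 1 of the 6 libraries with high Snhg levels, and it was the higher of its pair for all 8. Zfp37 stood at 3.69 and 4.33 TPM in G9a-KO and at 9.87 and 33.5 TPM in G9a Setdb1-DKO (log2 fold change 1.95, SE 0.48, adjusted p = 0.00978). Zfp882, a KRAB gene that overlaps Zfp617 on the same strand, stood at 1.70 and 1.18 TPM and then at 5.33 and 9.26 TPM (1.73, SE 0.36, adjusted p = 0.00258). Zfp707 stood at 6.00 and 7.19 TPM and then at 15.8 and 28.3 TPM (1.55, SE 0.39, adjusted p = 0.0116). The groups did not overlap, but the libraries of G9a Setdb1-DKO lay far from each other. The others were Zfp951, Zfp219 (20.5 and 17.9 TPM, then 44.5 and 46.3 TPM, 1.20), Zfp229 (28.6 and 22.2 TPM, then 39.8 and 71.1 TPM, 1.05), Zfp365 (9.91 and 13.1 TPM, then 22.5 and 26.1 TPM, 1.03) and Zfp654 (17.1 and 15.3 TPM, then 26.8 and 42 TPM, 1.01). The count was 1 without G9a Setdb1-DKO replicate 2, 20 without its replicate 1, 4 without G9a-KO replicate 1 and 5 without its replicate 2. Without all high-Snhg libraries it was 6, with Zfp37 at 1.12 (adjusted p = 0.000689), Zfp707 at 1.15 and Zfp882 at 1.38, while Zfp654 was no longer called at 0.69 (adjusted p = 0.0848). Zfp229 (0.91), Zfp365 (0.89) and Zfp654 (0.86) fell short of the size threshold with median ratio scaling.

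In the Tet-on-Dux cells lacking G9a and Suv39h1/2, Setdb1 loss raised 3 members and lowered 1 (background 2.36% and 0.955%). Of genes at 5 TPM or more in control, 0.887% were higher and 1.03% lower. Beside Zfp951, Zfp882 stood at 1.71 and 2.47 TPM and then at 5.24 and 8.84 TPM in QKO (log2 fold change 1.35, SE 0.36, adjusted p = 0.0189). Zfp654 stood at 16.8 and 21.2 TPM and then at 35.2 and 45.4 TPM (1.05, SE 0.24, adjusted p = 0.00669). Zfp580, a gene with 3 fingers and no KRAB A box, stood at 11.8 and 11.9 TPM and then at 5.34 and 4.46 TPM (-1.13, SE 0.27, adjusted p = 0.0111). The count of 4 was 0 without QKO replicate 2, 1 without G9a Suv39h1/2-TKO replicate 1, 2 without its replicate 2 and 7 without the high-Snhg libraries. Zfp809 was not called in any line of this table in the main fit, with log2 fold changes of 0.89 in the control line, 1.26 with Suv39h1/2 absent, 1.86 with G9a absent and 1.49 with both absent and adjusted p from 0.072 to 0.60. With median ratio scaling it was called in the G9a-KO line (1.72, limma adjusted p = 0.0477). Its libraries lay at 36.5 and 20.6 TPM in control and at 31.0 and 86.2 TPM in Setdb1-KO, where the higher of each pair was a high-Snhg library. In the lines with no such library it stood at 12.9 and 12.1 TPM in Suv39h1/2-DKO against 32.3 and 30.3 TPM in Suv39h1/2 Setdb1-TKO, and at 13.1 and 13.3 TPM in G9a Suv39h1/2-TKO against 37.8 and 40.3 TPM in QKO. The groups of these lines did not overlap. The fit estimates 1 spread for a gene over all groups of the table, including pairs as wide as those of Setdb1-KO, so a missing call here does not show a missing rise. Zfp958 had fold changes of 0.63, 0.81, 0.95 and 0.97 in the same order and was not called because each lay under the size threshold.

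**Figure D3:**
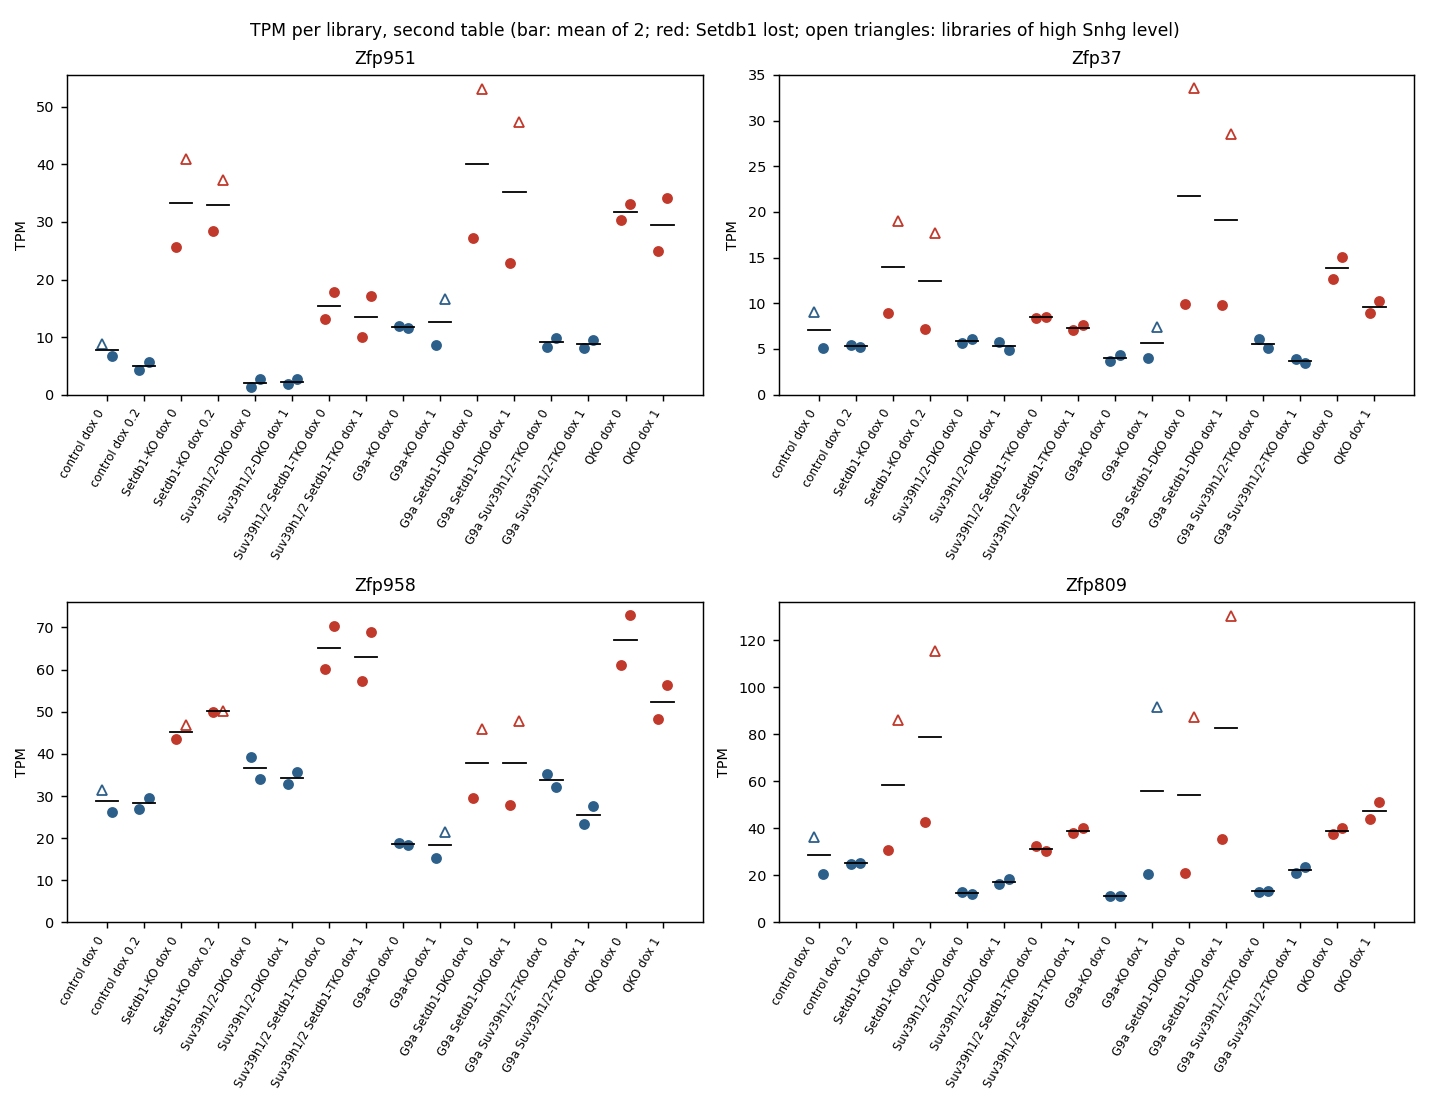
TPM in each of the 32 libraries of the second table (vertical axis, linear, 1 panel a gene) for Zfp951, Zfp37, Zfp958 and Zfp809 by genotype and doxycycline (horizontal axis), red where Setdb1 was lost, with open triangles for the 6 libraries of high Snhg level. The triangles are the higher of their pair for Zfp809 in every group that holds one.

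Over both tables, Setdb1 loss called 11 members in the first and 9 in the second. They shared 4, or 36.4% and 44.4% of the respective lists. Over all genes, 1717 and 967 were called and 695 shared, or 40.5% and 71.9%. The tables share no libraries. Of 63 members that were higher on average in all 3 lines of the first table, whatever the size, 49 (77.8%) were also higher in all 4 lines of the second. For all 13416 genes tested in both tables the share was 2018 of 3328 (60.6%). Of 64 members lower in all 3 lines, 14 (21.9%) were lower in all 4, against 1826 of 4655 genes (39.2%). In the second table the member medians were 0.10, 0.09, 0.32 and 0.05 against -0.01, 0.00, 0.13 and -0.01 for all genes. The high-Snhg libraries were in the Setdb1-lacking group in the G9a-KO line and in both groups in the control line.

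Loss of G9a was compared in 3 backgrounds of the first table. With Suv39h1/2 absent, 3 members were called higher and 2 lower (background 4.41% and 1.83%, median 0.08 against 0.06). Of genes at 5 TPM or more in control, 1.58% were higher and 2.06% lower. Zfp459, a KRAB gene with 3 fingers on chromosome 13 that overlaps an antisense gene, stood at 7.82 and 8.62 TPM in Suv39h1/2-DKO and at 19.9 and 29.6 TPM in G9a Suv39h1/2-TKO (log2 fold change 1.46, SE 0.22, adjusted p = 0.000151). Zfp951 stood at 4.80 and 5.23 TPM and then at 11.7 and 13.2 TPM (1.16, SE 0.14, adjusted p = 1.88e-05). Zfp518a, a gene with 5 fingers and no KRAB A box on chromosome 19, stood at 19.2 and 25.8 TPM and then at 41.2 and 60.9 TPM (1.13, SE 0.30, adjusted p = 0.0126). Each was higher in both libraries without G9a. Zfp395 stood at 27.3 and 27.6 TPM and then at 11.7 and 12.4 TPM (-1.12, SE 0.12, adjusted p = 7.12e-06). Zfp36 (tristetraprolin), the founder of the mRNA decay group, stood at 37.2 and 35.3 TPM and then at 16.9 and 15.3 TPM (-1.12, SE 0.14, adjusted p = 3.84e-05). The count of 5 was 8 without G9a Suv39h1/2-TKO replicate 1. In this comparison 5 of 5 primitive endoderm markers and 6 of 6 markers of the 2-cell stage were also called higher, with primitive endoderm markers summing to 91.1 to 95.6 TPM and then to 331 to 356 TPM, and their part in the members' values was not tested.

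Loss of G9a was also compared in cells that lacked Setdb1. With Setdb1 absent alone, 1 member was called higher and 0 lower (background 6.35% and 2.29%, median 0.06 against 0.08). Of genes at 5 TPM or more in control, 1.92% were higher and 1.9% lower. The member was Zfp518a, which stood at 14 and 26 TPM in Setdb1-KO and at 28.6 and 55.7 TPM in G9a Setdb1-DKO (log2 fold change 1.03, SE 0.30, adjusted p = 0.0173). Its libraries did not overlap but were spread wide. Scaled by median ratios it was 0.94 and the count was 0, and the count was 0 without Setdb1-KO replicate 1 or G9a Setdb1-DKO replicate 2, 2 without Setdb1-KO replicate 2 and 3 without G9a Setdb1-DKO replicate 1. With Suv39h1/2 and Setdb1 absent, 4 members were called higher and 0 lower (background 5.72% and 1.59%, median 0.05 against 0.02). Of genes at 5 TPM or more in control, 1.68% were higher and 1.7% lower. Zfp51, a KRAB gene with 20 fingers on chromosome 17, stood at 10.8 and 11.1 TPM and then at 23.5 and 29.3 TPM (1.19, SE 0.18, adjusted p = 0.000185). Zfp459 stood at 11 and 11.6 TPM and then at 22.9 and 28.7 TPM (1.11, SE 0.22, adjusted p = 0.00118), Zfp518a at 19.8 and 18.7 TPM and then at 39.1 and 46.8 TPM (1.11, SE 0.30, adjusted p = 0.0113), and Zfp770 at 8.07 and 8.62 TPM and then at 16.0 and 19.7 TPM (1.01, SE 0.20, adjusted p = 0.00121). Zfp770 with median ratio scaling was just under the size threshold and not called. The count was 9 without QKO replicate 1 and 2 without its replicate 2. Zfp518a was called in each of the 3 comparisons, but in none under every setting. With Suv39h1/2 absent it was at 0.93 (adjusted p = 0.118) without Suv39h1/2-DKO replicate 1 and at 0.86 (adjusted p = 0.136) without G9a Suv39h1/2-TKO replicate 2. With Suv39h1/2 and Setdb1 absent it was at 1.08 (adjusted p = 0.0609) without Suv39h1/2 Setdb1-TKO replicate 2 and at 0.99 (adjusted p = 0.0888) without QKO replicate 2. In G9a-KO itself, against the control libraries that chose the members, it stood at 50.5 and 65.9 TPM against 20.7 and 27.5 TPM.

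Loss of G9a in the Tet-on-Dux cells without doxycycline gave 1 member higher and 7 lower (background 3.07% and 4.91%, median -0.30 against -0.15). Of genes at 5 TPM or more in control, 1.08% were higher and 3.62% lower. Neither Zfp518a (21.0 and 20.1 TPM in control, 20.9 and 23.0 TPM in G9a-KO, log2 fold change 0.09, adjusted p = 0.887) nor Zfp459 (13.4 and 14.4 TPM, then 20.2 and 14.5 TPM, 0.28, adjusted p = 0.627) was called there. Zfp819, a KRAB protein linked to the silencing of retroelements in pluripotent cells, stood at 3.39 and 3.00 TPM and then at 7.57 and 9.43 TPM (1.17, SE 0.23, adjusted p = 0.00101). In the first table its G9a-lacking libraries were also the higher ones, at 11.9 and 11.8 TPM in G9a Suv39h1/2-TKO against 7.10 and 6.38 TPM in Suv39h1/2-DKO, but its fold changes of 0.73, 0.64 and 0.40 were not called. Zfp516, a factor known for brown fat gene activation, stood at 47.6 and 50.6 TPM and then at 25.2 and 15.7 TPM (-1.26, SE 0.28, adjusted p = 0.00272). Zfp334, a KRAB gene, stood at 6.47 and 5.57 TPM and then at 2.28 and 2.27 TPM (-1.09, SE 0.17, adjusted p = 8.54e-05). The other genes lower were Zfp185 (-1.22), Zfp236 (-1.22), Zfp382 (-1.12), Zfp39 (-1.10) and Zfp553 (-1.01). The first control library of this comparison was 1 of the 6 with high Snhg levels. The count of 8 was 5 without it, 4 without G9a-KO replicate 2 and 6 without all high-Snhg libraries. With median ratio scaling 1 member was higher and 3 lower, since Zfp553 (-0.83), Zfp334 (-0.94), Zfp39 (-0.95) and Zfp382 (-0.97) fell short of the size threshold.

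**Figure D4:**
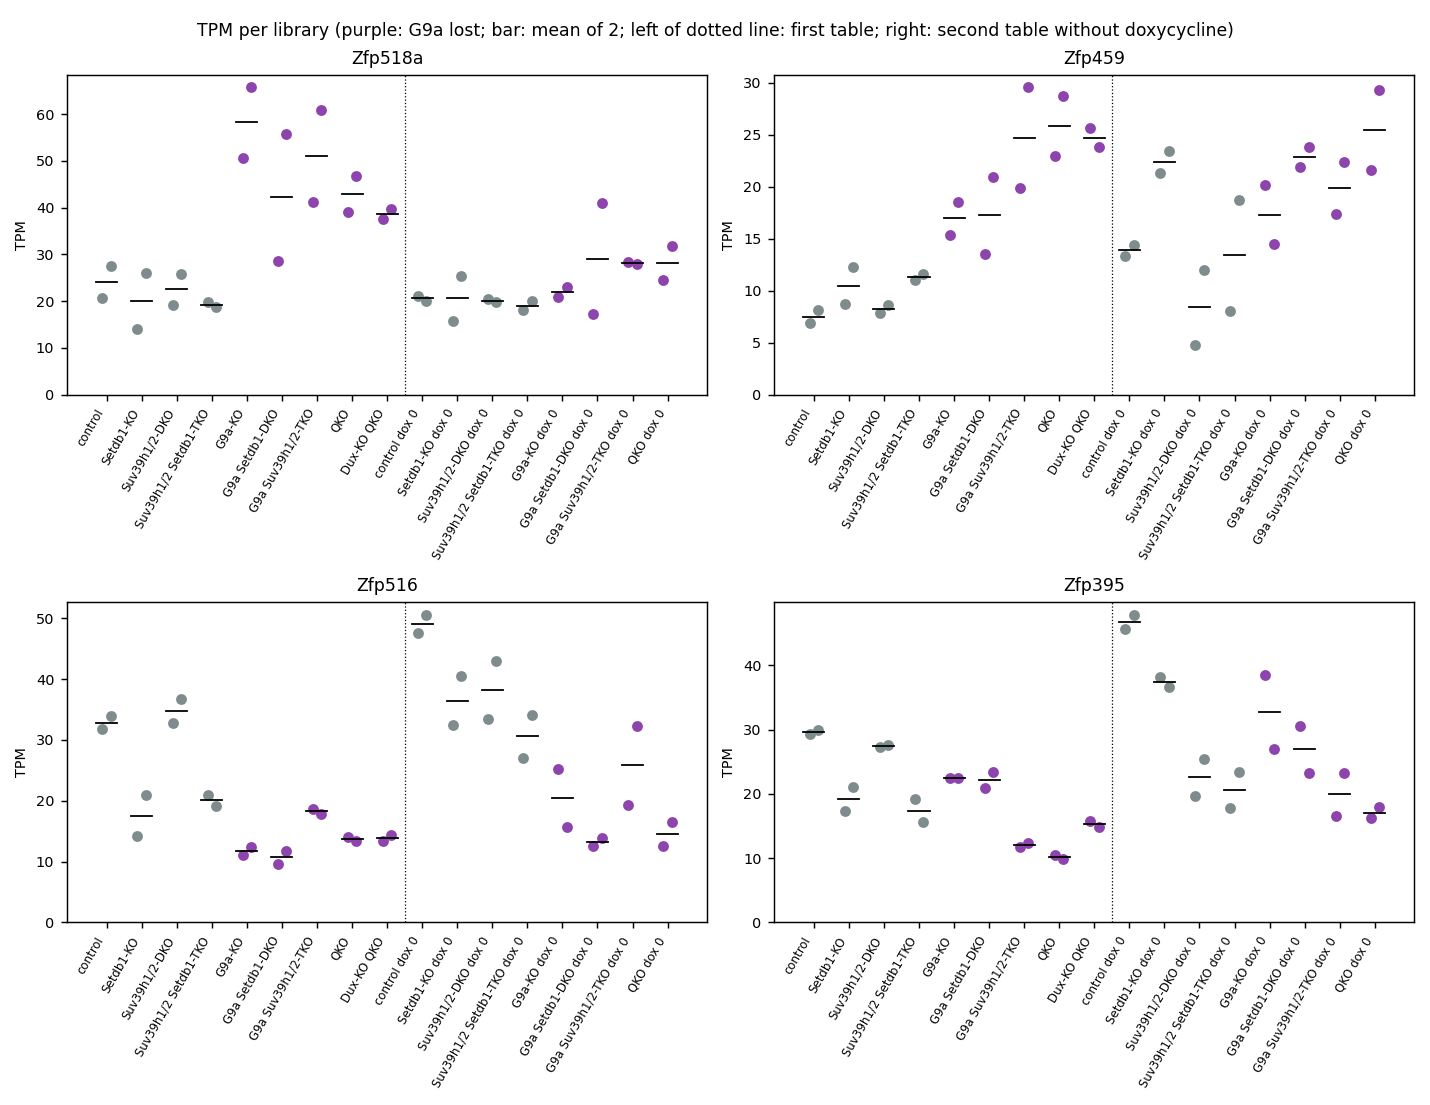
TPM in each library (vertical axis, linear, 1 panel a gene) for Zfp518a, Zfp459, Zfp516 and Zfp395, with the groups of the first table left of the dotted line and those of the second table without doxycycline right of it, bars for the mean of a group, purple where G9a was lost. Zfp518a lies at 28.6 TPM or more in every G9a-lacking library at left and does not separate by G9a in the control line at right.

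The quadruple loss against control in the second table, which those control libraries did not choose, called 7 members higher and 9 lower (background 6.59% and 7.42%, median -0.03 against -0.11). Of genes at 5 TPM or more in control, 2.68% were higher and 6.95% lower. Higher were Zfp951 (8.74 and 6.70 TPM, then 30.3 and 33.2 TPM, log2 fold change 1.92), Zfp882 (1.93 and 1.35 TPM, then 5.24 and 8.84 TPM, 1.58), Zfp961 (44.3 and 39.7 TPM, then 100 and 106 TPM, 1.28), Zfp59 (1.21), Zfp958 (31.5 and 26.2 TPM, then 61.1 and 73.1 TPM, 1.19), Zfp654 (1.02) and Zfp617 (1.01). All of these but Zfp654 carry a KRAB A box. The adjusted p lay between 0.00019 for Zfp961 and 0.0484 for Zfp617, and transcripts of Zfp59 and Zfp617 share 52.8% and 43.8% of their 50-base stretches with other genes. Lower were Zfp516 (47.6 and 50.6 TPM, then 12.6 and 16.6 TPM, -1.70, adjusted p = 8.80e-05), Zfp395 (45.6 and 47.9 TPM, then 16.3 and 17.9 TPM, -1.40), Zfp580 (17.6 and 10.3 TPM, then 5.34 and 4.46 TPM, -1.30), Zfp236 (-1.30), Zfp334 (-1.28), Zfp523 (-1.27), Zfp788 (-1.08), Zfp143 (-1.05) and Zfp941 (-1.03). Zfp143, a promoter-binding activator that also helps form chromatin loops, stood at 52.1 and 52.7 TPM and then at 21.3 and 28.8 TPM. By domain, 6 KRAB members rose and 3 fell with a median of 0.09, and 1 other member rose and 6 fell with a median of -0.24, a difference that was not tested. Without the high-Snhg libraries 15 members were called in place of 16, 10 higher and 5 lower. With median ratio scaling 13 were higher and 6 lower, with Zfp143 at -0.92, Zfp788 at -0.96 and Zfp941 at -0.90 no longer called, and the median of members was 0.09, so the split and the sign of the median depend on the scaling.

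Loss of Suv39h1/2 changed few members. Of genes at 5 TPM or more in control, at most 1.33% were called in either direction in any of its comparisons. With Setdb1 absent, limma called 0 members and, of all genes, 0.0361% higher and 0.0577% lower, with 7 members at an unadjusted p below 0.05. With G9a absent 0 members were called higher and 1 lower (background 0.505% and 1.1%), Zfp951, from 23.2 and 30.3 TPM in G9a-KO to 11.7 and 13.2 TPM in G9a Suv39h1/2-TKO (log2 fold change -1.03, SE 0.14, adjusted p = 0.000239). The fold change fell short of the size threshold without G9a-KO replicate 2 (-0.85) and without G9a Suv39h1/2-TKO replicate 1 (-0.95). With G9a and Setdb1 absent the member called lower was Zfp395 (0 higher, 1 lower, background 1.46% and 1.79%), from 21.0 and 23.4 TPM to 10.5 and 9.84 TPM (-1.05, SE 0.12, adjusted p = 3.34e-05). The count there was 2 without G9a Setdb1-DKO replicate 2 or QKO replicate 1. In the Tet-on-Dux cells 0 members were higher and 3 lower (background 0.239% and 1.32%, median -0.16 against -0.15). Zfp951 stood at 8.74 and 6.70 TPM and then at 1.27 and 2.74 TPM (-1.57, SE 0.37, adjusted p = 0.014), Zfp428 at 143 and 145 TPM and then at 35.4 and 76.9 TPM (-1.45, SE 0.38, adjusted p = 0.0239), and Zfp395 at 45.6 and 47.9 TPM and then at 19.7 and 25.4 TPM (-1.03, SE 0.27, adjusted p = 0.0272). These groups did not overlap, but the count was 0 without control replicate 1 or Suv39h1/2-DKO replicate 1, 1 without control replicate 2 and 5 without Suv39h1/2-DKO replicate 2. Zfp395 was at -0.88 (adjusted p = 0.0622) and not called with median ratio scaling. Zfp951 was lower without Suv39h1/2 in the control lines of both tables, at 12.3 and 10.9 TPM against 4.80 and 5.23 TPM in the first, where the control libraries chose the members and no test is given.

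Dux loss in QKO cells (Dux-KO QKO against QKO) called 2 members higher and 0 lower, while 4.71% of all genes were higher and 1.83% lower and the median of members was 0.06 against 0.22. Of genes at 5 TPM or more in control, 1.64% were higher and 0.581% lower. Zfp362 stood at 5.47 and 4.44 TPM and then at 11.8 and 11.2 TPM (log2 fold change 1.07, SE 0.17, adjusted p = 0.00021). Zfp385a, known to bind p53 and to modulate its targets, stood at 17.5 and 14.1 TPM and then at 32.8 and 33.9 TPM (1.04, SE 0.14, adjusted p = 5.70e-05). Neither gene overlapped between the groups, yet without QKO replicate 2 they were at 0.95 and 0.89 and the count was 0, and without QKO replicate 1 it was 7. With median ratio scaling, which moved the median of all genes from 0.22 to 0.01, they were at 0.85 and 0.80 and not called, and the calls were 0 higher and 2 lower: Zfp345 at -1.07 and Zfp119b at -1.05. The direction of the members' calls on Dux loss thus depends on the scaling. The 6 markers of the 2-cell stage were all called lower and 4 primitive endoderm markers higher in the same comparison. The 6 trophoblast markers, by level mostly Krt8, Krt18 and Tfap2c, summed to 52.0 to 62.0 TPM in QKO and 142 to 143 TPM in Dux-KO QKO. The part of these in the members' values was not tested. The genes that rose on Setdb1 loss were not called: Zfp951 had a log2 fold change of 0.24, Zfp37 of 0.15 and Zfp809 of -0.36.

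Induction of the Dux transgene called almost no members. Of genes at 5 TPM or more in control, at most 0.253% were called in either direction in any line. In 7 of the 8 Tet-on-Dux lines limma called 0 members, with 23 to 130 genes called higher in those lines overall. The share of all genes called higher was 0.181% in control, 0.166% in Setdb1-KO, 0.427% in Suv39h1/2-DKO, 0.246% in Suv39h1/2 Setdb1-TKO, 0.941% in G9a-KO, 0.456% in G9a Suv39h1/2-TKO and 0.384% in QKO. The share called lower was 0% in 4 of these lines, 0.0217% in Suv39h1/2-DKO, 0.0145% in G9a-KO and 0.0289% in QKO. At an unadjusted p below 0.05 there were 6, 0, 17, 2, 14, 34 and 51 members in the same order. In G9a Setdb1-DKO 1 member was called lower and 0 higher (background 0.297% and 0.753%): Zfp691 stood at 6.16 and 5.86 TPM without and 1.89 and 3.20 TPM with doxycycline (log2 fold change -1.01, SE 0.24, adjusted p = 0.0269). Its fold change was -0.82 and not called with median ratio scaling. The count there was 2 without the doxycycline-treated G9a Setdb1-DKO replicate 1. In the G9a-KO line it was 1 without the treated replicate 1. The 2-cell markers of these cells reached a summed level of up to 6322 TPM with doxycycline.

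By role, of the KRAB genes that act at imprints (the members Zfp57, Zfp445 and Zfp568, and Zfp202 from under the threshold) limma called 0 of 4 in any tested pair of either table. Of all 232 members 17.7% were called at least once, and of genes at 5 TPM or more in control 20.3%. Lists as short as those by role cannot be told apart from these shares. Zfp57 lay at 293 to 509 TPM over the libraries of the first table. In the second it stood at 249 and 74.7 TPM in the control group without doxycycline, where the higher value is the high-Snhg library. Of 8 KRAB genes known to bind retroelements, 6 of them members, Zfp809 and Zfp600 rose on Setdb1 loss with Suv39h1/2 absent, Zfp809 rose with G9a and Suv39h1/2 absent, Zfp819 rose on G9a loss in the second table, and Zfp961 rose in its QKO cells. Of 13 members with roles in pluripotency or general transcription, 0 were called in any pair of the first table, among them Zfp281, a partner of the pluripotency factors, at 39.5 to 77.1 TPM, and Zfp207 at 232 to 298 TPM, and 1, Zfp143, was called in the second. Of all 232 members, 19 were called in the first table and 28 in the second. The shares over all genes were counted over both tables together, so these counts and the 0 of 13 have no background for their own table. Of the 3 CCCH members, Zfp36 and Zfp36l2 each fell in 1 comparison. The other, Zfp36l1, was not called in any tested pair of the main fit and leaned the other way in QKO. Its log2 fold change there was 1.09 against the control libraries of the first table, given as a description. With median ratio scaling it was called higher in QKO against control of the second table, at 1.04.

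Of the partners of KRAB proteins and the H3K9 methylation machinery, 30 of 32 listed genes were tested. Trim28, the corepressor, lay at 565 to 1322 TPM (median 797) over the libraries of the first table and was not called in any Setdb1 comparison. Atf7ip, a partner of Setdb1 that protects it in the nucleus, rose on Setdb1 loss in all 7 comparisons, with log2 fold changes of 1.58 (adjusted p = 6.55e-06), 1.19 (adjusted p = 0.000126) and 1.77 (adjusted p = 1.36e-06) in the Suv39h1/2-DKO, G9a-KO and G9a Suv39h1/2-TKO lines of the first table. In the second table they were 1.26 in the control line, 1.43 with Suv39h1/2 absent, 2.10 with G9a absent and 1.79 with both absent. Its relative Atf7ip2 rose with G9a and Suv39h1/2 absent (1.66 in the first table). With Suv39h1/2 absent, Dnmt3l, a cofactor of de novo DNA methylation, rose by 1.08, and Chd3, a remodeller of the NuRD complex, fell by 1.07. Neither was called on Setdb1 loss in the G9a-KO or G9a Suv39h1/2-TKO line of the first table. In Setdb1-KO against the control libraries of that table, given as a description, the log2 fold changes were 1.36 for Dnmt3l and -1.05 for Chd3. Both changes thus also appeared with Suv39h1/2 present. Compared with the Suv39h1/2-DKO line, the response of Dnmt3l differed by -1.10 in the G9a-KO line and by -1.96 in the G9a Suv39h1/2-TKO line, both called. In the second table Dnmt3l rose by 1.39 in the control line.

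The libraries with high Snhg levels differed from their partners in the members too. In 6 Tet-on-Dux groups 1 library had a high Snhg level and the other did not, and 153 of 232 members (65.9%) were higher in the high-Snhg library in all 6 groups, against 34.5% of all 13817 genes tested and 37.4% of genes at 5 TPM or more in control. The share was 71.2% of KRAB members and 59.8% of the others. The median difference was 0.42 over members and 0.19 over all genes on the log2 scale. In each of the 6 groups 7 members (3.02%, against 1.40% of all genes) were higher by at least 1. They were Zfp935 (median difference 1.70, with transcripts that share all their 50-base stretches with other genes), Zfp692 (1.66), Zfp57 (1.43), Zfp760 (1.37), Zfp408 (1.34), Zfp930 (1.15) and Zfp944 (1.15), chosen here after their values were seen. Zfp809 (median difference 1.65, lowest 0.80) and Zfp445 (1.41, lowest 0.90) were higher in all 6 groups too. Summed over members, the 6 libraries held 4648 to 5740 TPM and the other 26 held 3075 to 4693 TPM, while the 18 libraries of the first table held 5003 to 6357 TPM. Within a group the labels give no reason for the difference between the 2 libraries, and what sets it was not tested.

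**Figure D5:**
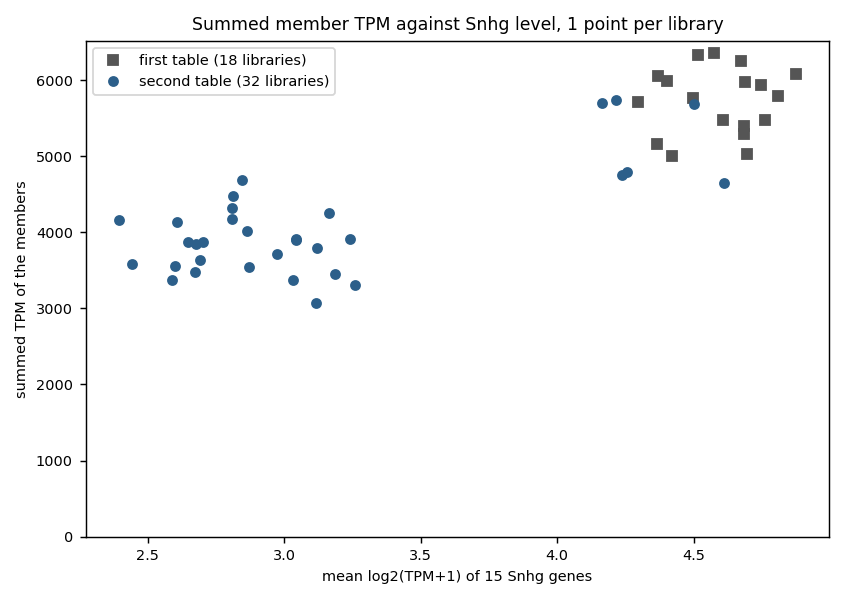
Summed TPM of the 232 members (vertical axis) against the mean log2 level of 15 Snhg genes (horizontal axis), 1 point a library, for both tables. The 6 libraries of the second table above a Snhg level of 4 hold 4648 to 5740 TPM, and the 26 below hold 3075 to 4693 TPM.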

How the data were processed

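Poly(A) RNA was measured in 50 libraries of TT2 mouse embryonic stem cells. Per the labels' protocols, RNA was purified with an AllPrep kit, made into stranded TruSeq mRNA libraries and read as 150 nt pairs on a NovaSeq. Per the submitters' processing notes the tools were SAMtools 1.9, RSEM 1.3.1, STAR 2.7.10b and Bowtie2 2.3.4.1, and the build was mm10. No source used here gives the step each tool did, the annotation or how shared reads were treated. The values were gene TPM deposited by the authors in 2 separately normalised tables, so depth is unknown. Library columns without a sample numbered 0, and 2 transgene and reporter entries were left out of the second table.

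The members and lists were chosen with earlier results of these data known. Genes that reached 1 TPM in 2 or more libraries (13862 in the first table, 13817 in the other) were fitted as log2(TPM+1), the groups of a table sharing a linear model without covariates, in R 4.3.3 with limma 3.58.1 (variance trend, 9 and 16 residual degrees of freedom) and data.table version 1.17.8, with Benjamini-Hochberg adjustment over all genes of a comparison. The script was tested on simulated data. Genes named were, per comparison, up to 10 called members with the largest fold change in each direction whose libraries did not overlap, the 5 highest in control, the 3 nearest the threshold on either side, members of role lists, and the 3 most and 3 least variable. Some called genes were named beside these. KRAB boxes and fingers were found in proteins translated from GENCODE M21 (GRCm38) with pyhmmer 0.12.3 and pandas 2.3.3 in Python 3.11.15, at an E-value of 1e-05, and figures were drawn with matplotlib 3.10.9. Promoter windows came from RefSeq (GRCm38.p6). Alternatives were a pseudocount of 0.1, no filter, median ratio scaling, the replicate number as a block, each library left out in turn and, for the second table, the Snhg class as a covariate or its 6 libraries left out. Repeat elements and single transcripts were not analysed here.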

Additional observations from a re-analysis of the deposited data

Results flagged for a closer look

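The response to Setdb1 loss differed between lines in a test of the difference itself for 5 results, each on the log2(TPM+1) scale with 2 libraries a group. Zfp951 responded less in the G9a-KO line than in the Suv39h1/2-DKO line, with a difference of -2.30, and less in the G9a Suv39h1/2-TKO line than in the Suv39h1/2-DKO line, with a difference of -1.21. The difference of the G9a-KO line from the Suv39h1/2-DKO line was -1.61 for Zfp600, whose reads may be split with near-identical copies, and -1.31 for Zfp934, which has the same limit. The difference of the G9a Suv39h1/2-TKO line from the Suv39h1/2-DKO line was -1.19 for Zfp428. In Zfp600, Zfp934 and Zfp428 the fold changes of the lines compared were opposite in sign. Both tests used the same Suv39h1/2-DKO and Suv39h1/2 Setdb1-TKO libraries, so the 5 results are not independent. What lies behind them was not tested.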

How the results depend on the processing

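Without the filter, no count of called members moved by more than 1.5 times in any of 28 comparisons and interactions. A pseudocount of 0.1 moved 3 counts: Setdb1 loss in the G9a-KO line to 5 from 3 and in the G9a Suv39h1/2-TKO line to 13 from 8, and doxycycline in G9a Setdb1-DKO to 2 from 1. Median ratio scaling gave 13 from 8 for Setdb1 loss in the G9a Suv39h1/2-TKO line, 0 from 1 for G9a loss with Setdb1 absent, and, in the second table, 0 from 1 for doxycycline in G9a Setdb1-DKO, 2 from 1 for Setdb1 loss in the Suv39h1/2-DKO line and 4 from 8 for G9a loss. With the Snhg class as a covariate the second table gave 3 from 1 for Setdb1 loss in the Suv39h1/2-DKO line, 7 from 4 in the G9a Suv39h1/2-TKO line, 4 from 8 for G9a loss, 5 from 3 for Suv39h1/2 loss and 1 from 0 for doxycycline in Suv39h1/2-DKO and in G9a-KO. Without the high-Snhg libraries the first 2 of these were 3 and 7. Neither of those lines holds a high-Snhg library, so leaving these out kept their fold changes and altered only the shared spread and the adjusted p. The cause of the other moves was not tested. No called fold change of a named gene changed sign in any alternative. The calls on Dux loss did turn with median ratio scaling, from 2 higher and 0 lower to 0 higher and 2 lower, with the median of members at -0.17 from 0.06, and the median of members in QKO against control of the second table turned to 0.09 from -0.03.

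The replicate number as a block gave 2 from 1 for Setdb1 loss in the Suv39h1/2-DKO line of the second table and moved no other count by more than 1.5 times. The differences between replicates 1 and 2 correlated between groups at -0.06 to 0.62 over 36 pairs of groups in the first table (median 0.27, 25 over 0.1). In the second table they correlated at -0.65 to 0.75 over 120 pairs (median 0.12, 66 over 0.1). Same-numbered libraries thus tended to deviate together, more so in the first table. The labels do not say what the numbers share, and the main fits left them out.

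With 1 library left out, which leaves a lone library assumed to vary like the other groups, the counts ranged as follows. In the first table Setdb1 loss gave 4 to 7 in the Suv39h1/2-DKO line, 2 to 6 in the G9a-KO line and 7 to 17 in the G9a Suv39h1/2-TKO line, and the 2 interactions gave 2 to 8 (G9a-KO) and 1 to 3 (G9a Suv39h1/2-TKO). G9a loss gave 4 to 8 with Suv39h1/2 absent, 0 to 3 with Setdb1 absent and 2 to 9 with both absent, Suv39h1/2 loss gave 0 to 0 with Setdb1 absent, 0 to 1 with G9a absent and 1 to 2 with both absent, and Dux loss gave 0 to 7. In the second table Setdb1 loss gave 0 to 2 in the control line, 1 to 2 with Suv39h1/2 absent, 1 to 20 with G9a absent and 0 to 5 with both absent, Suv39h1/2 loss 0 to 5, G9a loss 4 to 10 and QKO 12 to 20. Doxycycline gave 0 to 1 in G9a-KO, 1 to 2 in G9a Setdb1-DKO and 0 to 0 elsewhere, and the interaction 0 to 0. With 2 libraries a group and TPM without counts, small changes of low members cannot be resolved.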
